A study of Homo sapiens with 12 samples.

Results

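The cytosolic ribosomal protein genes are the protein-coding genes for the structural proteins of the large and small subunits of the cytoplasmic ribosome. They were found by name, as genes called RPL or RPS followed by a number and, in some, by A, X, L or AL, with RPLP0, RPLP1, RPLP2 and RPSA added. RPS27L and RPL3L and the 4 matching genes on the X chromosome were left out, which left 78 members of 43828 gene places, 46 of the large and 32 of the small subunit. The RNA came from CCRF-CEM cells, a line of human leukemic T lymphoblasts, either wild-type (the parent) or with SLFN11 knocked out according to their label. Both genotypes received DMSO, the solvent, or camptothecin at 100 nM for 4 h, and each of the 4 groups has 3 libraries. Camptothecin poisons topoisomerase I by holding it on DNA. SLFN11, a nuclear protein, sensitises cells to drugs that stall replication. Whether the knockout is 1 clone, and whether replicates came from separate cultures, is not stated in the labels, and p-values therefore reflect the scatter of these libraries alone, possibly only a technical one.

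Ribosomal protein genes are among the most highly transcribed genes of a growing cell, and their messenger RNAs are unusually stable. Most of these messages begin with a C followed by a run of pyrimidines, the terminal oligopyrimidine or TOP motif, through which growth signals act on their translation and storage together. Their introns often hold small nucleolar RNA genes, and some ribosomal proteins, RPL5 and RPL11 above all, also bind MDM2 when ribosome assembly is disturbed.

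The start sites are shown because the pyrimidine run is a shared sequence feature that the choice of members did not use. RefSeq promoters (build GRCh38.p14) held 60 of the 78 members, and 43 of the 60 (71.7%) had an annotated start at a C followed directly by at least 4 more C or T letters. Over all 27305 genes of the same table that share was 5.14%, and where a gene had several starts the longest run counted. The windows below run from 10 bases before the start to 20 bases from it, 5′ to 3′, and capitals mark the pyrimidine run that begins at the start base. The first 9 are members that recur in the results, and RPL7A has the longest run, 16 bases; RPL36AL and RPL10A, at the end, fall short of the motif.
RPL11, chr1:23691796-23691825, plus strand: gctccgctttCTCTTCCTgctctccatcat
RPL7A, chr9:133348208-133348237, plus strand: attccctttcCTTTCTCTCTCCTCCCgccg
RPL35, chr9:124861938-124861967, minus strand: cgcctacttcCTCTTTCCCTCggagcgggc
RPS24, chr10:78033853-78033882, plus strand: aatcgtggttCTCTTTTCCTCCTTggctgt
RPS6, chr9:19380217-19380246, minus strand: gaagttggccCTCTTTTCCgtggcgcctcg
RPLP0, chr12:120201092-120201121, minus strand: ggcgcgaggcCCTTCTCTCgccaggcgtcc
RPLP1, chr15:69452808-69452837, plus strand: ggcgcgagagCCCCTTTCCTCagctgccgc
RPLP2, chr11:809957-809986, plus strand: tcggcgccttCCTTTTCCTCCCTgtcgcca
RPL41, chr12:56116623-56116652, plus strand: cttcgcctttCTCTCggccttagcgccatt
RPL36AL, chr14:49620607-49620636, minus strand: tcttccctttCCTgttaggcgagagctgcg
RPL10A, chr6:35468391-35468420, plus strand: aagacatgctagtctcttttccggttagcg
The letters CCGGAAG, a core of ETS factor sites, stood on either strand within 250 bases before the start in 18 of 60 members (30%) and in 8.8% of all genes. The letters TATAAA stood on the gene's own strand within 50 bases before the start in 3 members (5%) and in 2.96% of all genes. A match is a description of the sequence only, and promoter activity was not measured.

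Exon reads numbered 42439957 to 63606344 per library, apart from parent control replicate 1 with 135592046, whose library name has another pattern than the rest. The members took 4.06% to 4.83% of all exon reads of a library. SLFN11 itself was at 107 to 122.9 CPM (reads scaled by library size with TMM factors) in the 6 parent libraries and 85.9 to 91.7 in the 6 knockout libraries; its reads cannot show whether the protein was lost. All 24 T lymphoblast markers were at a mean of at least 1 CPM, as were 3 of 6 B-lineage markers found, 0 of 7 myeloid, 0 of 6 erythroid and 1 of 8 epithelial and fibroblast markers, and COL1A2 was at 0. The summed T lymphoblast markers were 3096 to 3352 CPM in untreated parent, 2220 to 2240 in treated parent, 3698 to 3742 in untreated knockout and 2881 to 2966 in treated knockout libraries, and their part in the results was not tested.

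Parent control replicate 1 stood apart from the other parent controls on these genes. Of 77 members with enough exon reads to test, 53 were higher and 24 lower there than in parent controls 2 and 3, with a median log2 difference of 0.17 and single members from -0.97 to 1.07. RPL11 was at 1346 CPM in that library against 755 and 771 in the other parent controls, RPL26 at 1078 against 552 and 550.3, and RPS26 at 440.2 against 228 and 233. RPS12 went the other way, at 466 against 762 and 765, and so did RPL31, at 277 against 487 and 492. The median coefficient of variation of a member was 12.6% over the 3 parent controls and 0.98% over replicates 2 and 3. Knockout camptothecin replicate 3 also stood apart, lower than its group's replicates 1 and 2 for 77 of 77 members by a median log2 difference of -0.17, and it had the highest share of intron reads, 33.55%. The main counts of members are therefore given with all 12 libraries and again without parent control 1 or without both, a choice made after the values were seen; whether the members' readings in them come from preparation, sequencing or the cells was not tested.

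**Figure D1:**
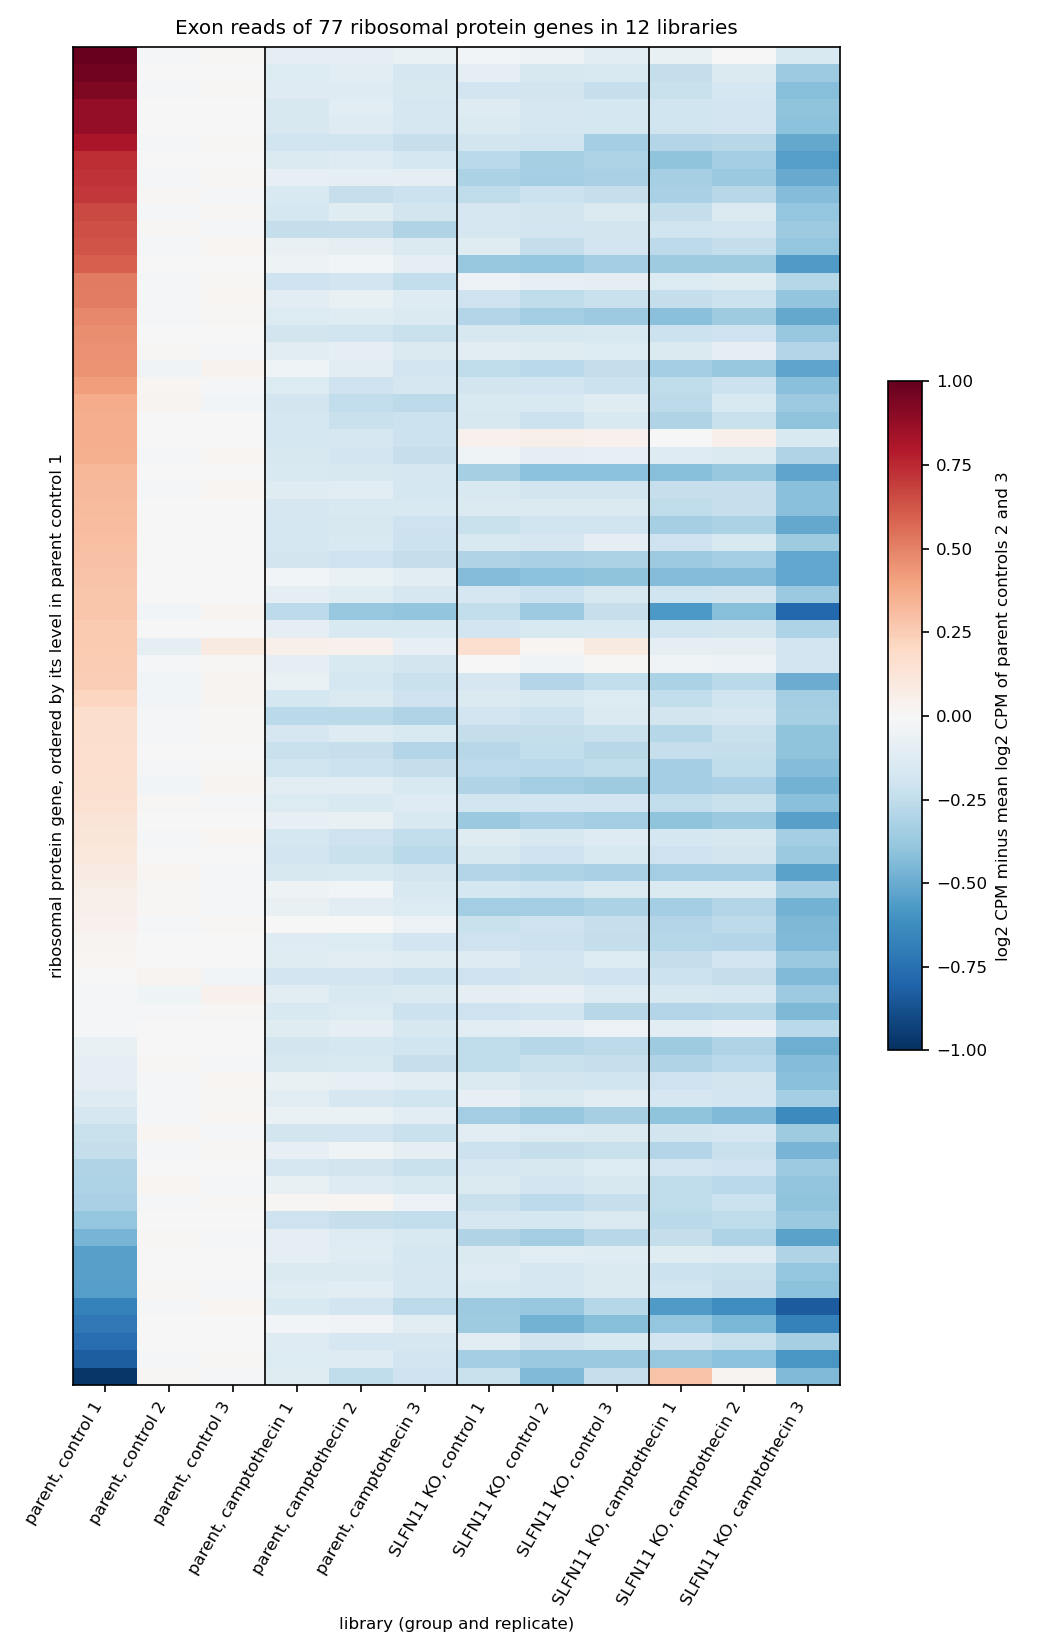
Heat map of the 77 tested members (rows, ordered by their level in parent control 1) in the 12 libraries (columns): colour is the log2 CPM of exon reads minus the mean of parent controls 2 and 3, red higher and blue lower, cut off at 1 and -1. Parent control 1 holds members up to 1.07 above and 0.97 below the other parent controls, while the treated parent and the untreated knockout columns are mostly pale blue, with medians between -0.14 and -0.20, and knockout camptothecin replicate 3 is the bluest, with a median of -0.41.

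Levels spanned a wide range. RPLP0, the base protein of the ribosomal stalk, had the most exon reads, 1689 CPM on average over the 12 libraries, and 74 of 77 members lay above 100 CPM; the median was 544. Per kilobase of exon, RPS12 (818 CPM per kb), RPL41 (784), the smallest ribosomal protein, and RPS27 (595) were highest. The length counts every annotated exon base, 767 for RPS12 but 3886 for RPL13, whose annotation leaves no intron. The order per kilobase therefore depends on the annotation too. The lowest were variant genes. RPL39L, a relative of RPL39 best known from testis, was at 27.6 CPM per kb, and RPS10L, a copy inside FAM110A, at 1.5. RPL10L, the testis counterpart of RPL10, had 0 to 2 reads per library and was not tested. Other variant genes lay higher, RPL36AL at 125.3 CPM per kb and RPS17L at 174.9. The authors removed duplicate reads, which caps the reads of short and abundant messages, so order among the most abundant members is uncertain.

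Camptothecin in parent cells was followed by lower exon reads for many ribosomal protein genes and higher reads for none. Of 77 members 39 fell and 0 rose (edgeR's quasi-likelihood test, adjusted p below 0.05 over all genes), 50.6% of members against 17.1% of the 23546 genes tested that fell and 16.8% that rose. At an unadjusted p below 0.05, 51 members were lower and 0 higher, and DESeq2 called 44 and 0. The changes were small: the median of members was -0.23 (log2), with members from -0.54 to 0.14, against a median of 0.01 for all genes. The count without parent control 1 was 55 lower and 0 higher (71.4% of members; 17.4% of all genes) with a median of -0.15, and without knockout camptothecin replicate 3 as well it was 70 (90.9%; 20.1% of all genes). With 12 libraries, 57 members had all treated below all control libraries, against 22.1% of all genes; without parent control 1 there were 74, against 28.8%. Leaving out treated parent replicate 1, 2 or 3 left 21, 18 and 20 members called. In these bulk libraries less RNA per cell and a changed mixture of cells cannot be told apart, and CPM are shares, so a change in total RNA would not be seen.

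Large subunit genes counted 29 lower of 45 tested and small subunit genes 10 of 32, with medians of -0.25 and -0.16; without parent control 1 these were 33 and 22, with medians of -0.15 and -0.15. RPL11, which carries the 5S RNA into the large subunit with RPL5, read 1346, 755 and 771 CPM in control and 663, 666 and 649 in treated parent libraries. All treated libraries lay below all controls, and the fall was -0.54 ± 0.18 (SE; adjusted p = 0.0417), or -0.21 ± 0.06 (adjusted p = 0.00573) without parent control 1, so most of its size came from that library. RPL5, its partner, read 947, 761 and 764 in control and 678, 685 and 687 in treated libraries, a fall of -0.27 ± 0.08 (adjusted p = 0.0152), and -0.16 ± 0.05 without that control.

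RPL35, a large subunit protein near the exit of the peptide tunnel, read 695, 449 and 443 CPM against 377, 380 and 362, a fall of -0.50 ± 0.13 (adjusted p = 0.0102) and of -0.25 ± 0.05 (adjusted p = 6.63e-05) without parent control 1. RPL7A, a large subunit protein described here for its long pyrimidine run, read 1244, 1093 and 1113 against 914, 917 and 897, and fell by 0.34 ± 0.07 on the log2 scale (adjusted p = 0.000909). It kept most of that fall without parent control 1, -0.28 ± 0.05. RPL39L read 42.24, 34.3 and 35.6 CPM against 29.1, 26.8 and 26.6, with a fall of -0.45 ± 0.09 (adjusted p = 0.00123), and -0.34 ± 0.08 without that control.

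Among small subunit genes, RPS24, a gene in which inherited variants cause Diamond-Blackfan anemia, read 958, 576 and 574 against 519.6, 525 and 509, a fall of -0.44 ± 0.16 (adjusted p = 0.0474). The fall was -0.15 ± 0.05 without parent control 1. RPS6, the small subunit protein phosphorylated by the S6 kinases, read 1036, 737 and 749.6 against 677, 682 and 672 and fell by 0.31 ± 0.10 (adjusted p = 0.0231; -0.13 ± 0.05 without that control). Of the 9 listed Diamond-Blackfan anemia genes 6 fell, and 9 of 9 without parent control 1, with medians of -0.33 and -0.19. RPS19, the most often affected of them, missed the threshold with all libraries at 572, 704 and 706 against 628, 621 and 603 (-0.10 ± 0.08, adjusted p = 0.38) and passed it without parent control 1, its lowest control (-0.19 ± 0.05, adjusted p = 0.00174).

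Members that did not pass with 12 libraries included the ribosomal stalk, the lateral arm that recruits elongation factors. RPLP0 read 1991, 1936 and 1915 in control and 1831, 1788 and 1754 in treated parent libraries, without overlap, at -0.12 ± 0.06 (adjusted p = 0.167). RPLP1 read 692, 766 and 790.3 against 744, 744 and 718, with overlap (-0.03 ± 0.07, adjusted p = 0.814). RPLP2 read 516, 763 and 751 against 695, 700.3 and 668, at 0.02 ± 0.11 with 12 libraries and -0.14 ± 0.05 (adjusted p = 0.0329) without parent control 1, where its sign turned.

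RPS27A, which encodes ubiquitin fused to a small subunit protein, was at -0.12 ± 0.06 (adjusted p = 0.134). RPL36AL, a relative of the X-linked RPL36A, read 186, 88.1 and 89.3 against 83.3, 82.8 and 84.9: its -0.54 ± 0.25 (adjusted p = 0.136) became -0.08 ± 0.05 without parent control 1. RPL41 read 1085, 954 and 986 against 896, 898 and 875 and fell by 0.18 ± 0.07 (adjusted p = 0.0441; -0.12 ± 0.05 without that control). RPS12, one of the 3 members with most reads per kilobase, read 466, 762 and 765 against 749, 743 and 710.0, at 0.14 ± 0.15 with 12 libraries and -0.05 ± 0.06 without parent control 1.

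**Figure D2:**
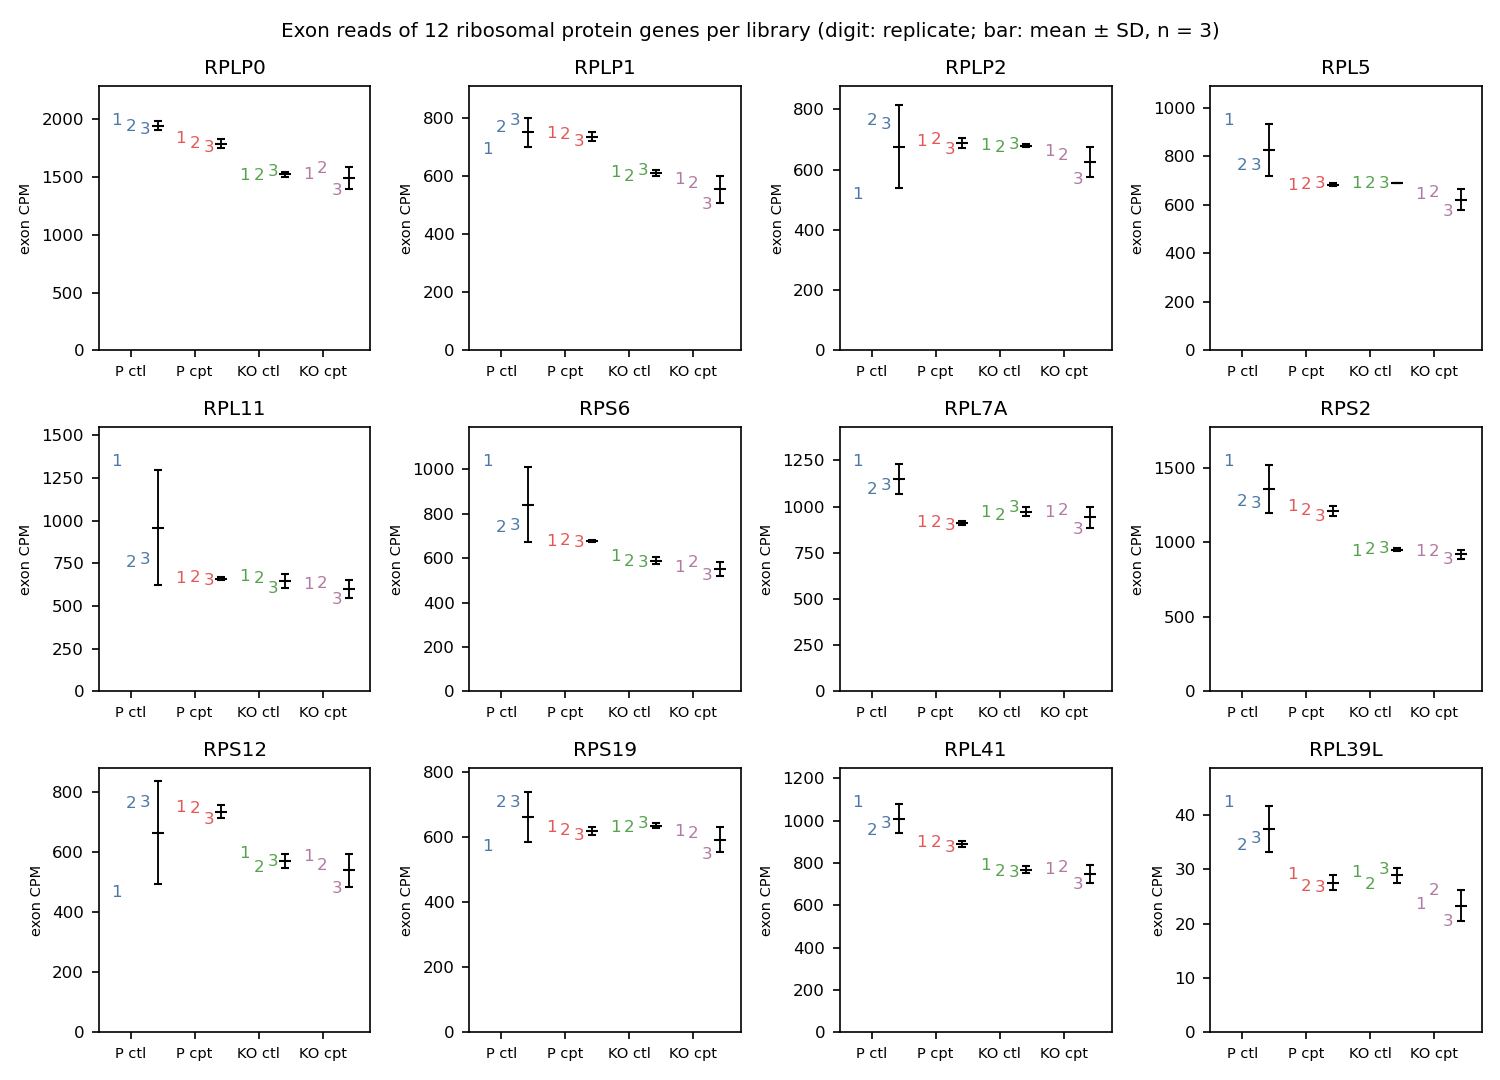
Exon CPM per library for 12 members, each panel on its own linear axis from 0; digits are replicates, and black bars give the mean ± SD of 3 libraries in parent control (P ctl), parent camptothecin (P cpt), knockout control (KO ctl) and knockout camptothecin (KO cpt). Parent control 1 sits far above its group for RPL11 (1346) and far below it for RPS12 (466) and RPLP2 (516), and replicate 3 is the lowest treated knockout library in each panel.

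In SLFN11 knockout cells the same drug and time was followed by called exon changes in few members. Of 77 members 1 fell and 0 rose (1.3% lower, against 9.28% of all genes lower and 7.3% higher), and at an unadjusted p below 0.05, 4 were lower and 0 higher; DESeq2 called 1 and 0. The median was -0.10, against 0.02 for all genes, and 76 of 77 members were below 0, nearly all without a call. Members ran from -0.33 to 0.29. The highest was RPS10L, which averaged only 0.74 CPM in control and 0.90 in treated knockout libraries. The median of members turned to 0.05 with library size alone as the scale. Without parent control 2 there were 2. The called member was RPL39L, at 29.5, 27.2 and 29.8 CPM in control and 23.4, 26.0 and 20.3 in treated knockout libraries, a fall of -0.31 ± 0.09 (adjusted p = 0.0332). Without parent control 1, which is in neither group but shares the filter, the scaling and the estimate of spread, 15 fell and 0 rose (19.5%; 14.3% of all genes). Without knockout camptothecin replicate 3 as well 17 fell and 0 rose (22.1%; 16.3% of all genes), with a median of -0.04. With 12 libraries 39 members had all treated below all control libraries, against 19.6% of all genes.

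RPLP0 read 1512, 1517 and 1550.0 in control and 1519, 1571 and 1384 in treated knockout libraries, with overlap, at -0.03 ± 0.06. RPL7A read 968, 949.6 and 997 against 969, 982 and 875, also with overlap, at -0.04 ± 0.07, and 0.01 ± 0.02 without both libraries. RPL11 read 673, 663 and 602 against 624, 631 and 536, at -0.11 ± 0.18. RPL5 read 689, 688 and 689 against 640.4, 649 and 571: all treated libraries were lower, at -0.15 ± 0.08 (adjusted p = 0.238) with all libraries and -0.095 ± 0.022 (adjusted p = 0.000483) without both.

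The direct test of whether the knockout changed the response found 0 members lower and 0 higher with 12 libraries (4.47% and 1.84% of all genes were called lower and higher). At an unadjusted p below 0.05, 0 were lower and 3 higher, and DESeq2 called 0 and 2. The median difference, knockout minus parent, was 0.14, with members from -0.32 to 0.52. Leaving out parent control 1 gave 1 lower and 3 higher (9.3% and 5.1% of all genes), with a median of 0.06, and without knockout camptothecin replicate 3 alone 2 were higher. Without both, 46 of 77 members were higher and 0 lower (59.7%, against 8.61% of all genes higher), with a median of 0.11 and 3 members below 0. The count thus ranged from 0 to 46 with the libraries used. Knockout camptothecin replicate 3 was below replicates 1 and 2 for 77 of 77 members, so leaving it out raises the difference for each member. Leaving out parent control 1 also narrows the spread. The 46 calls and the p-values of that fit follow in part from this choice, made on the members' own values. They are therefore no independent support for a difference. Among members higher in that last fit, RPL7A differed by 0.285 ± 0.031 (adjusted p = 6.04e-11), RPL35 by 0.24 ± 0.04, RPL11 by 0.17 ± 0.05 (adjusted p = 0.0134), RPS19 by 0.15 ± 0.03 and RPLP0 by 0.12 ± 0.03. RPL5 (0.06 ± 0.03, adjusted p = 0.165), RPS6 (0.08 ± 0.03, adjusted p = 0.0752) and RPLP1 (0.01 ± 0.03, adjusted p = 0.851) did not pass there.

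**Figure D3:**
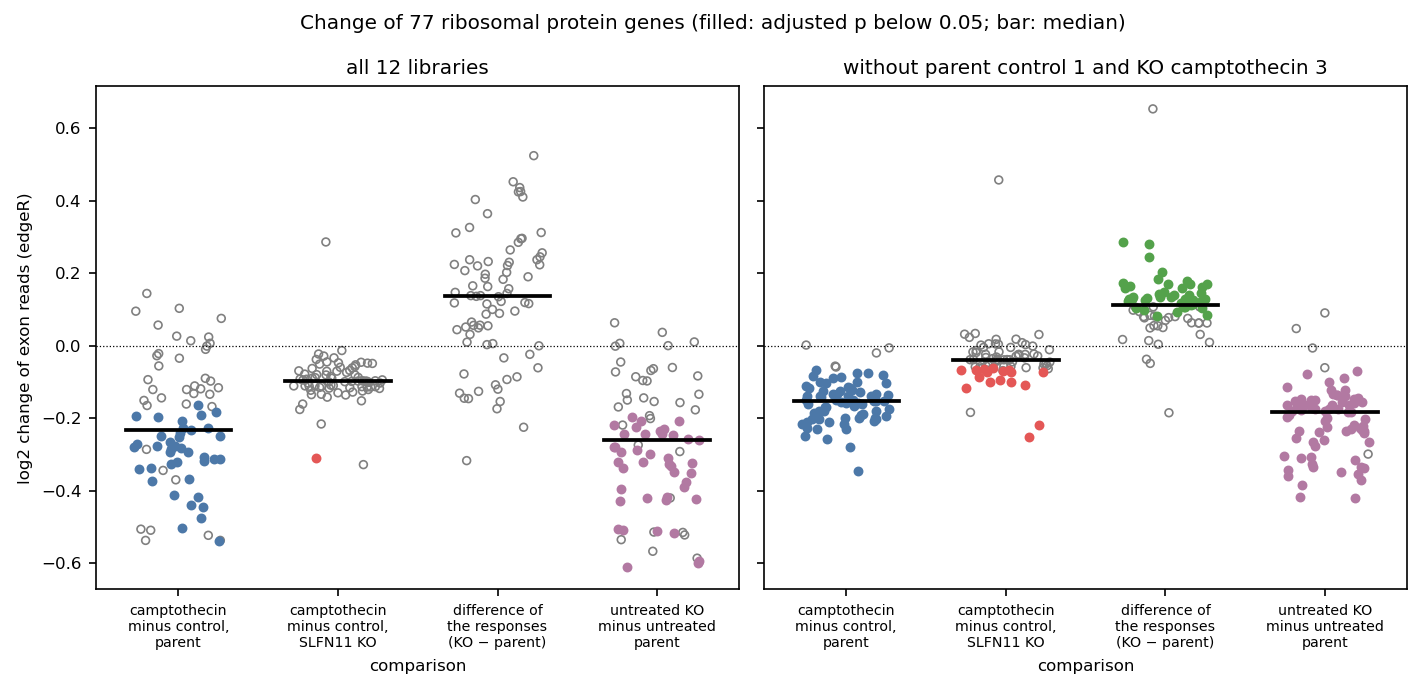
Log2 change of exon reads for the 77 tested members in each comparison, with all 12 libraries (left) and without parent control 1 and knockout camptothecin replicate 3 (right); filled points have an adjusted p below 0.05, open points do not, and black bars are medians. The cloud of the parent response narrows and gains calls, from 39 to 70, and the difference of responses goes from 0 to 46 calls. The libraries left out were chosen after the members' values were seen.

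Without any drug, knockout cells already had lower ribosomal protein RNA than parent cells. Of 77 members 42 were lower and 0 higher (54.5%, against 7.44% of all genes lower and 8.26% higher), with a median of -0.26 and members from -0.61 to 0.06. At an unadjusted p below 0.05, 55 were lower and 0 higher, and DESeq2 called 47 and 0. Leaving out parent control 1 gave 63 lower and 0 higher (81.8%; 8.21% of all genes lower and 9.59% higher) with a median of -0.18, and without knockout camptothecin replicate 3 as well 72 (93.5%; 11.6% of all genes). With 12 libraries 58 members had all knockout below all parent libraries, against 16.3% of all genes, and without parent control 1 74, against 23.5%. Leaving out untreated knockout replicate 1, 2 or 3 left 17, 14 and 16 members called. This comparison and the parent response use the same 3 parent controls, so their values stand side by side here and were not compared.

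The largest called differences were RPS20, RPL12, RPS24, RPS2 and RPS6. RPS2, a small subunit protein at the entry of the messenger RNA, read 1542, 1272 and 1262 in parent and 937, 953 and 958 in knockout controls, a difference of -0.52 ± 0.08 (adjusted p = 0.000114), and -0.42 ± 0.04 (adjusted p = 8.65e-09) without parent control 1. All knockout libraries lay below all parent libraries for RPS2. RPL12, at the foot of the stalk, read 673, 447 and 444 against 342, 340.5 and 351, at -0.60 ± 0.13 (adjusted p = 0.00487; -0.37 ± 0.05 without that control). RPS20 read 844, 508 and 515 against 411, 404 and 409, at -0.61 ± 0.15 (adjusted p = 0.017; -0.33 ± 0.05 without it), and RPS6 was at -0.51 ± 0.10 and -0.34 ± 0.05.

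Of the stalk, RPLP0 (-0.35 ± 0.06, adjusted p = 0.000988) and RPLP1 (-0.30 ± 0.07, adjusted p = 0.00797) were lower, and RPLP2 was at 0.01 ± 0.11. RPLP2 was lower too without parent control 1, at -0.16 ± 0.05 (adjusted p = 0.026), so that 3 of 3 were. RPL41 was lower, at -0.39 ± 0.07 (adjusted p = 0.000484). RPL5 was lower by 0.26 ± 0.08 on the log2 scale (adjusted p = 0.0384), while RPL11 missed the threshold at -0.57 ± 0.18 (adjusted p = 0.0609) and passed it at -0.24 ± 0.06 (adjusted p = 0.00387) without parent control 1. Without both libraries 5 members were not called, and they are named here after their values were seen: RPL23 (0.05 ± 0.03), RPL8 (-0.0064 ± 0.0239), RPS16 (0.09 ± 0.07), RPL36AL (-0.06 ± 0.03) and RPS10L (-0.299, adjusted p = 0.575).

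Ordered by group mean, the untreated parent was highest for 74 of 77 members and treated knockout lowest for 52 once both libraries were left out; with 12 libraries these were 68 and 69. Treated parent and untreated knockout libraries lay close together between them: relative to parent controls 2 and 3 the median member was at -0.14, -0.14 and -0.18 in the treated parent replicates and at -0.18, -0.20 and -0.19 in the untreated knockout replicates. Treated knockout replicates were at -0.24, -0.225 and -0.41. The lowest place of the treated knockout depends on the TMM scale. As plain shares of exon reads, the members took 4.398%, 4.463% and 4.059% in its replicates 1, 2 and 3. These shares were 4.148%, 4.169% and 4.107% in untreated knockout and 4.831%, 4.633% and 4.672% in untreated parent replicates. The same order was not counted over all genes.

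Intron reads, which come mostly from unspliced RNA, gave a second view of 68 members with enough of them; 8 members have no intron in the annotation. One of the 68, RPS29, overlaps RN7SL1, the abundant 7SL RNA of the signal recognition particle, which took 2.61% to 3.88% of exon reads. Only 0.281% of the intron reads of RPS29 lay in bases that no other annotated gene covers. Its intron level averaged 91290 CPM in untreated parent and 67500 CPM in untreated knockout libraries. These values cannot be read as RPS29 alone, though it stays among the 68 in the counts. Other members share intron bases with annotated genes too. The share of intron reads in unshared bases was 0% for RPL15, RPL26, RPL32, RPL35A and RPS10. It was 3.42% for RPL28, 6.73% for RPL36, 19.3% for RPL17, 21.8% for RPL31 and 31.3% for RPL4. For RPS15A, RPL30 and RPL23A it was 42.9%, 43.7% and 46.7%. The intron counts include all of these members, whose intron reads cannot be assigned to them alone. In the parent response 12 members fell and 0 rose in intron reads (17.6%, against 14.2% of all 19908 genes tested for introns), with a median of -0.10 that turned to 0.02 with library size alone; at an unadjusted p below 0.05, 17 were lower and 1 higher, and DESeq2 called 13 and 0. This share is near the background of all genes. The counts without parent control 1 were 6 lower and 2 higher (8.82% and 2.94%, against 14.4% and 13% of all genes) with a median of -0.04, and leaving out treated parent replicate 2 or 3 left 6 and 4 lower. The largest falls among members whose groups did not overlap were RPL37A, RPS6 (-0.49 ± 0.12, adjusted p = 0.00369), RPL10A (-0.47 ± 0.12, adjusted p = 0.00458), RPL17 (-0.45 ± 0.12, adjusted p = 0.0102) and RPSA, a small subunit protein related to the laminin receptor (-0.374, adjusted p = 0.021). RPL17 and RPSA lost the call without parent control 1, at -0.21 (adjusted p = 0.0791) and -0.17 (adjusted p = 0.123), and RPL10A kept it at -0.26 (adjusted p = 0.0312).

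In knockout cells 13 members fell and 1 rose in intron reads (19.1% and 1.47%, against 9.05% and 7.85% of all genes), with a median of -0.19. They were 25 and 1 without parent control 1 (36.8%; 12.8% of all genes lower), and without knockout camptothecin replicate 3 as well 19 and 1 (27.9%; 14.2% of all genes lower). Leaving out that replicate alone left 6 lower, and leaving out untreated knockout replicate 1, 2 or 3 left 7, 8 and 7. RPL37A, a zinc-binding large subunit protein, read 132, 131 and 118 intron CPM in control and 89.9, 88.0 and 88.1 in treated knockout libraries, and 175, 167 and 167 against 117, 123.4 and 117 in parent libraries. Its groups did not overlap in either genotype, and it fell by 0.52 ± 0.07 (adjusted p = 7.74e-06) and 0.51 ± 0.06 (adjusted p = 2.91e-06). RPL37A has 75154 annotated intron bases, and no other annotated gene overlaps them. RPL27 (-0.55 ± 0.14, adjusted p = 0.0069) and RPS3A (-0.52 ± 0.10, adjusted p = 0.00106) also fell in knockout cells.

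The difference of the intron responses called 2 members, RPL28 lower and RPL31 higher (1.47% each, against 2.81% and 3% of all genes), and both overlap another gene. RPL28, a large subunit protein, read 182, 204 and 192 intron CPM in control and 164, 157 and 156 in treated parent libraries, and 236, 214 and 226 against 131, 134 and 107 in knockout libraries. The groups did not overlap in either genotype, and the fall was deeper in knockout cells, -0.86 ± 0.08 against -0.28 ± 0.08, a difference of -0.58 ± 0.11 (adjusted p = 0.00247). UBE2S, a ubiquitin-conjugating enzyme of mitosis that overlaps the annotated RPL28 region, fell in its exon reads by 0.748 in knockout and 0.353 in parent cells, a difference of -0.395 (adjusted p = 0.00994). The intron reads of UBE2S rose by 0.47 in parent cells (adjusted p = 0.00081) and fell by 0.635 in knockout cells (adjusted p = 0.000114), a difference of -1.11 (adjusted p = 3.69e-05). In the intron bases that only RPL28 covers, its difference was -0.23 ± 0.27 (adjusted p = 0.703).

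RPL31 read 108, 95.5 and 90.9 intron CPM against 88.3, 92.2 and 86.7 in parent and 77.2, 80.1 and 78.9 against 83.9, 95.7 and 97.7 in knockout libraries. All treated knockout libraries lay above all knockout controls, and the difference of the responses was 0.37 ± 0.11 (adjusted p = 0.0456). The intron reads of TBC1D8, which overlaps RPL31, differed by 0.44 (adjusted p = 0.0288) and its exon reads by 0.09 (adjusted p = 0.845), and in intron bases that only RPL31 covers the difference was 0.17 ± 0.18 (adjusted p = 0.661). Leaving out 1 library in turn, RPL31 kept its call in 3 of 12 fits (without parent control 1, parent control 3 or knockout camptothecin replicate 1) and RPL28 in 12 of 12. Without parent control 1 the difference called 4 members lower and 1 higher (5.88% and 1.47%, against 4.96% and 5.14% of all genes).

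Between untreated genotypes 26 members were lower and 0 higher in intron reads (38.2%, against 6.43% of all genes lower and 8.17% higher), with a median of -0.31; at an unadjusted p below 0.05, 46 were lower and 1 higher, and DESeq2 called 31 and 0. Without parent control 1 there were 17 (25%; 5.87% of all genes) with a median of -0.22, and leaving out untreated knockout replicate 1 or 2 left 16 each. RPS6 introns read 38.8, 29.3 and 28.6 CPM in parent and 19.6, 22.4 and 21.7 in knockout controls, without overlap, at -0.61 ± 0.12 (adjusted p = 0.00107; -0.45 ± 0.11 without parent control 1). RPL10A, a large subunit protein that contacts transfer RNA leaving the ribosome, averaged 38.8 ± 8.82 CPM (SD, n = 3) in parent and 26.4 ± 1.67 (n = 3) in knockout controls, without overlap, at -0.56 ± 0.12 (adjusted p = 0.00206). RPS21 had the largest difference, -0.74 ± 0.20 (adjusted p = 0.0146), from 61 to 239 intron reads per library, while its exon reads were at 0.06 with 12 libraries and at -0.15 ± 0.04 (adjusted p = 0.0171) without parent control 1, where the sign turned; its introns were then at -0.73. RPL17 (-0.58 ± 0.13, adjusted p = 0.0025) and RPL7A (-0.55 ± 0.15, adjusted p = 0.0196) were lower as well. Without parent control 1 RPL17 was at -0.34 (adjusted p = 0.00771), RPL10A at -0.35 (adjusted p = 0.00859), and RPL7A lost the call at -0.31 (adjusted p = 0.0911). RPL17 is counted together with its readthrough gene.

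**Figure D4:**
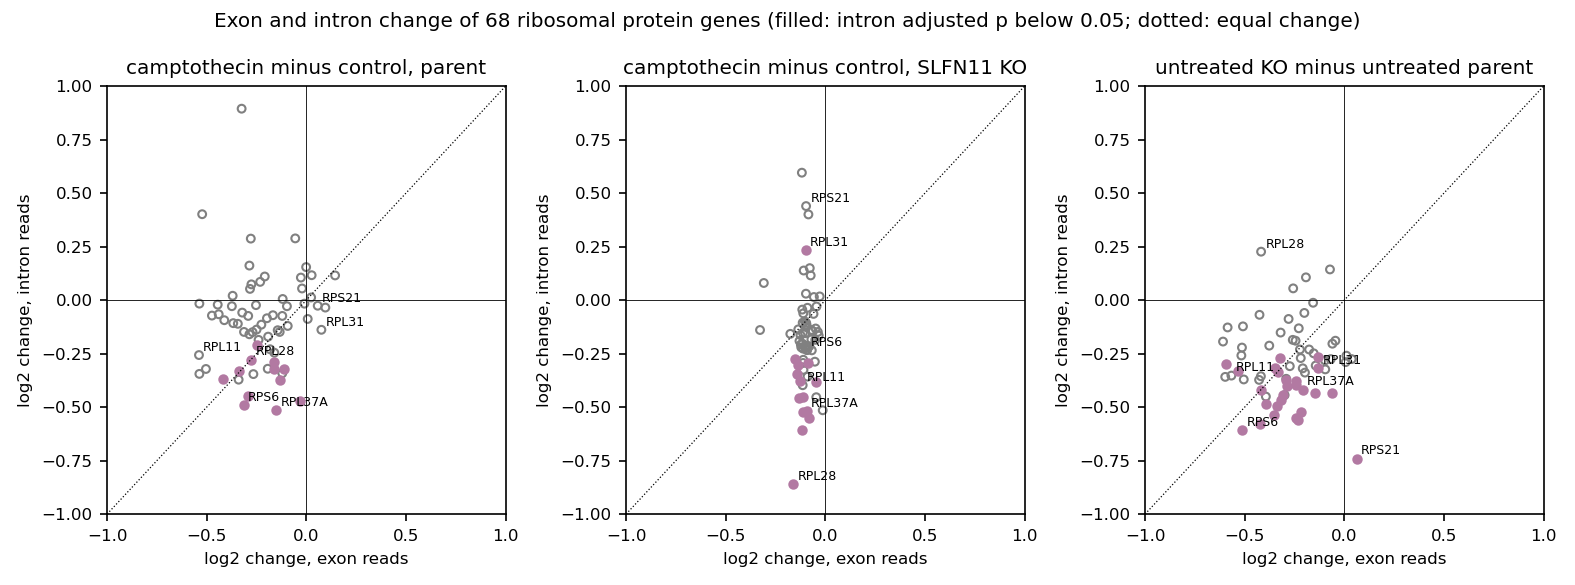
Log2 change of exon reads (x axis) against intron reads (y axis) for 68 members in 3 comparisons with all 12 libraries; filled points have an intron adjusted p below 0.05, and the dotted line marks equal change. In the untreated genotype comparison most points lie in the lower left, with medians of -0.26 for exons and -0.31 for introns, and in knockout cells the intron changes spread from -0.86 (RPL28) to 0.595, while the median exon change is -0.10.

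Exon and intron changes were also compared within one model with each library as a block. In parent cells the exon change was lower than the intron change for 12 members and higher for 2 of 68 (17.6% and 2.94%, against 9.99% and 8.1% of all genes), and without parent control 1 for 23 and 3 (33.8%; 9.75% of all genes lower); leaving out treated parent replicate 1, 2 or 3 left 5, 4 and 5 lower, and leaving out replicate 1 or 3 left 1 higher. In knockout cells it was lower for 0 and higher for 7 members (10.3%, against 5.17% of all genes lower and 1.71% higher), among them RPL27, RPL28, RPL37A and RPS3A. Leaving out untreated knockout replicate 1 left 2 of these calls in number, and leaving out any other 1 knockout library left 4. Without parent control 1 there were 4 lower and 10 higher (5.88% and 14.7%, against 9.24% and 4.51% of all genes). At an unadjusted p below 0.05 the knockout counts were 5 lower and 13 higher. The difference between genotypes called 0 members in either direction (0.282% and 0.184% of all genes), with 3 lower and 20 higher at an unadjusted p below 0.05, and 14 higher without parent control 1 (20.6%; 1.38% of all genes).

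Other genes of the same pathway were read from lists chosen with earlier results of these data known. Of 17 translation factor and TOP-type genes 7 fell and 0 rose in the parent response (10 and 0 without parent control 1), beside 17.1% and 16.8% of all genes. In the knockout response 2 fell and 0 rose (9.28% and 7.3% of all genes). Without parent control 1 these were 10 and 0 (14.3% and 13% of all genes). The difference of the responses called 0 of the 17 in either fit. In untreated knockout cells 8 were lower and 0 higher, beside 7.44% and 8.26% of all genes. NPM1, a nucleolar chaperone of ribosome assembly, read 828, 496 and 502 CPM in control and 431, 442 and 438 in treated parent libraries, and fell by 0.48 ± 0.15 (adjusted p = 0.0298; -0.19 without parent control 1). EIF3E, a subunit of initiation factor eIF3, fell by 0.39 ± 0.10 (adjusted p = 0.00722; -0.19 without it). Neither gene's groups overlapped.

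Of 32 genes of ribosome biogenesis 3 fell and 10 rose in the parent response, and 3 and 17 without parent control 1; in knockout cells 1 fell and 4 rose, and 4 and 7 without that control. Of all genes, 17.1% fell and 16.8% rose in parent and 9.28% and 7.3% in knockout cells, or 17.4% and 19%, and 14.3% and 13%, without that control. GRWD1, an assembly factor of the large subunit, read 64.3, 70.8 and 68.8 in control and 101.2, 96.8 and 93.8 in treated parent libraries, without overlap, and rose by 0.52 ± 0.06 (adjusted p = 4.66e-06). In knockout cells it was at 0.14 ± 0.06 (adjusted p = 0.147), and the difference of the responses was -0.38 ± 0.09 (adjusted p = 0.0125). POLR1C, a subunit of RNA polymerases I and III, rose by 0.50 ± 0.07 (adjusted p = 5.37e-05) in parent and by 0.29 ± 0.07 (adjusted p = 0.0133) in knockout cells. UTP20 (-0.24 ± 0.06, adjusted p = 0.00498) and EBNA1BP2 (-0.38 ± 0.14, adjusted p = 0.0494) fell in parent cells, and EBNA1BP2 was at -0.12 (adjusted p = 0.0503) without parent control 1.

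Of 11 genes that control TOP messages through mTOR signalling, 4 fell and 2 rose in parent cells, and 4 and 3 without parent control 1, beside the same shares of all genes. RPTOR, which brings substrates to mTOR complex 1, read 72.7, 80.4 and 80.5 in control and 44.1, 43.6 and 43.8 in treated parent libraries, without overlap. It fell by 0.83 ± 0.06 (adjusted p = 3.49e-08) in parent and by 0.51 ± 0.06 (adjusted p = 2.17e-05) in knockout cells, a difference of 0.32 ± 0.09 (adjusted p = 0.043). EIF4E, the cap-binding factor, fell by 0.54 ± 0.06 (adjusted p = 3.2e-06) in parent cells. RPS6KB1, an S6 kinase, rose by 0.33 ± 0.10 (adjusted p = 0.0127; 0.51 without parent control 1), and TSC2, an inhibitor of the pathway, rose by 0.17 ± 0.06 (adjusted p = 0.0263). Mitochondrial ribosomal protein genes, which serve another ribosome, had 18 lower and 8 higher of 76 in the parent response, with a median of -0.07. Without parent control 1 these counts were 17 and 19. Of all genes, 17.1% were lower and 16.8% higher, and 17.4% and 19% without that control. Whether the mitochondrial genes differ from these shares was not tested.

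Members with and without the pyrimidine run at the start were also read separately. Without both libraries, 39 of 43 members with the run and 15 of 16 without it fell in the parent response, with medians of -0.15 and -0.14; in untreated knockout against parent cells 42 of 43 and 15 of 16 were lower, with medians of -0.18 and -0.20. With 12 libraries the counts were 19 of 43 and 9 of 16 in the parent response and 22 of 43 and 8 of 16 in the untreated comparison. Of all genes, 20.1% and 11.6% were lower in these comparisons without both libraries, and 17.1% and 7.44% with all 12. Of the 27 members whose annotated region holds small nucleolar RNA genes, 58 in all, 15 fell in the parent response, as did 24 of the other 50 tested, with medians of -0.25 and -0.23, from all 12 libraries only. These shares are descriptions, and the difference between such groups of members was not tested.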

How the data were processed

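RNA-seq reads from 12 libraries were analysed, 3 for each of 4 groups. The deposited files hold, per the file headers, raw counts of exon and intron reads per gene, from which the authors removed duplicate reads, per the file names in the labels. The submitters' processing notes name hg19, Picard 2.9.2, STAR 2.5.4a, Trimmomatic 0.39 and Trim Galore 0.6.2. Counting tool, annotation and strand setting were not given in the sources used here. Counts were tested over all genes with edgeR 4.0.16 (R 4.3.3; filterByExpr, TMM, robust quasi-likelihood test on the 4 groups, Benjamini-Hochberg adjustment, threshold 0.05), on 23546 genes for exons, 19908 for introns and 17351 for the exon minus intron change. CPM use TMM-scaled library sizes. Alternatives included DESeq2 1.42.0, library size alone and leaving out each library. Named members are the 5 largest called falls and 5 largest called rises per comparison without overlap between groups, 10 members named always, the 3 highest and 3 lowest per kilobase, and 2 falls and 2 rises of each other list. The members and lists were chosen with earlier results of these data known. The model was tested on simulated data. RNA quality scores were not used here. Values of some single members are not reported here; counts and medians cover every member tested.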

Additional observations from a re-analysis of the deposited data

Results flagged for a closer look

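The difference between the genotypes in the camptothecin response of intron reads passed the interaction test for RPL28, at -0.583 (log2, knockout minus parent; edgeR's quasi-likelihood test, adjusted p = 0.00247). In intron bases covered by RPL28 alone it was -0.234 (adjusted p = 0.703), and the exon and intron reads of UBE2S, which overlaps it, differed by -0.395 and -1.11. RPL31 passed the same test at 0.371 (adjusted p = 0.0456), with 0.172 (adjusted p = 0.661) in its own bases, while the intron reads of the overlapping gene TBC1D8 differed by 0.437 and its exon reads by 0.0893. The part of the overlapping genes in these results was not tested.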

How the results depend on the processing

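Of the alternatives to the counts of members, 357 values stayed close to the main count, judged by a set ratio, and 59 moved. Medians are not among these values. For single named members 1598 values kept the call or its absence, 131 lost the call and 49 gained it. Another 5 changed sign with a call in either fit. Changes of sign without a call in either fit were counted among the 1598. With library size alone, which moves the median of all genes by 0.125 in parent and 0.153 in knockout exon reads and 0.123 in parent intron reads, the knockout exon median was 0.0546 and the parent intron median 0.0241. The parent exon count was then 17 lower, the exon difference 2 higher, parent introns 4 lower and 3 higher, knockout introns 7 lower and the exon minus intron difference 2 higher. With only the groups compared, lower counts were 17 for parent, 9 for knockout and 13 for untreated exons and 7 for parent introns. The exon difference called 2 higher by DESeq2, 8 with no filter and 2 with reads unique to a gene. Knockout exons had 2 lower with no filter, knockout introns 6 lower on the scale of the exon reads, and the knockout exon minus intron change 4 higher with unique reads. The cause was not tested.

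Parent control 1 and knockout camptothecin replicate 3 were left out together in an alternative chosen after seeing the data. Exon counts were then 70 lower in parent, 17 in knockout and 72 in untreated cells, with 46 higher for the difference. Of all genes, 20.1%, 16.3%, 11.6% and 8.61% were called in the same directions. Leaving out that treated knockout library, lower than its group for 77 of 77 members, itself raises the difference of the exon responses. Introns had 2 higher in parent (2.94%, against 16.7% of all genes). For the difference 5 were lower (7.35%, against 7.12% of all genes), which is near the background. RPLP2 turned to -0.135 in the parent response and -0.157 in the untreated comparison without parent control 1, and to -0.138 and -0.155 without both; leaving out 1 library, its highest values were 0.118 and 0.0963. RPL31 introns in knockout cells turned to -0.0968 with unique reads.

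Leaving out each library in turn, lower exon counts ranged from 18 to 55 (parent), 0 to 15 (knockout), 14 to 63 (untreated) and 0 to 1 (difference), with 0 to 3 higher for the difference. Lower intron counts ranged from 4 to 17 (parent, with 0 to 2 higher), 6 to 25 (knockout), 16 to 33 (untreated) and 1 to 4 (difference). The exon minus intron change ranged from 4 to 23 lower and 1 to 3 higher in parent, 0 to 4 lower and 2 to 10 higher in knockout, and 0 to 14 higher for the difference. For most of these fits the share of all genes called is not given here.

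Replicate numbers are shared only as numbers: same-numbered libraries correlated from -0.063 to 0.089, none of 18 pairs above 0.1, and 5 of 12 libraries correlated best with their own number. With the replicate block the lower exon counts were 40, 1 and 43 in parent, knockout and untreated comparisons, and intron counts 12, 15 and 28. The 2.61% to 3.88% of exon reads in RN7SL1, duplicate removal and the depth of intron reads limit what can be read for RPS29, short messages and RPS21.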
